A study of Mus musculus with 24 samples.

Results

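The Hmga and Igf2bp genes were followed as a group of 5 among the 55291 genes of the deposited count table, namely Hmga1, Hmga2, Igf2bp1, Igf2bp2 and Igf2bp3. They were taken by name, and the group was chosen by the measured rise of Hmga2 with copper (Cu) in knockdown lines of these same data. Every comparison of Cu with no treatment is therefore given for them as a description and without a test. RNA-seq had been carried out on 24 libraries of mouse myoblasts, a proliferating muscle precursor, in 4 cell lines. The scr line carried a scrambled control, and the other lines carried a knockdown (KD) of Baf180 (gene Pbrm1, a subunit of the PBAF chromatin remodeling complex), of Baf250a (gene Arid1a, a subunit of canonical BAF) or of Brd9 (a subunit of non-canonical BAF). Each line was left untreated (NT), given 100 µM CuSO4 or given 50 µM ZnSO4 for 48 h, with 2 replicates for each of the 12 conditions. The labels call the cells primary mouse myoblasts, whereas the methods of the study describe the immortalized C2C12 line carrying stably expressed shRNAs. The methods call the replicates biological and independent, but the sources used here do not say which hairpin was sequenced for each target or whether each replicate was transduced anew. The p-values set each difference against the spread between replicate libraries. Whether that spread covers separately made lines is not known. A knockdown effect and another difference between stable lines therefore cannot be told apart.

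HMGA proteins are small architectural chromatin proteins that bind AT-rich DNA. IGF2BP proteins bind mRNAs, among them that of the growth factor Igf2, and influence their stability, transport and translation. Both families are called oncofetal because most members are abundant in the embryo, fall to low levels in adult tissue and return in many tumours. Hmga2 and the Igf2bp genes are textbook targets of the let-7 microRNAs, which bind sites in the 3′ untranslated region (3′ UTR), while LIN28 proteins block let-7 maturation. In skeletal muscle, Hmga2 and Igf2bp2 are known for supporting the proliferation of myoblasts.

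The let-7 sites are shown first because they are a feature that the genes share and that the choice of genes did not use. The members of the mouse let-7 family have the same seed (bases 2 to 8, in capitals), as in these mature sequences from RefSeq (GRCm38.p6), of which let-7e is shown because its hairpin gene had the most reads here:
mmu-let-7a-5p: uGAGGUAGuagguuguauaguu
mmu-let-7e-5p: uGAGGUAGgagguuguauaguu

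In GRCm38 coordinates, Hmga2 lies at chr10:120361275-120476469, Igf2bp1 at chr11:95957163-96005940, Igf2bp2 at chr16:22059009-22163299 and Igf2bp3 at chr6:49085223-49214957. Matches to this seed, written CTACCTC on the mRNA strand, were counted in the longest annotated 3′ UTR of each gene (GENCODE M21, GRCm38). Hmga2 held 4 in 3014 bases, a number reached by 0.117% of genes with a 3′ UTR of like length (within 20%). Igf2bp1 also held 4, in 6337 bases, which 0.333% of genes of like length reached. Hmga1, Igf2bp2 and Igf2bp3 held 1 each, and at least 1 was held by 8.65%, 12.8% and 14.6% of genes of their like length. Over all 21102 genes with a 3′ UTR, 10.1% held at least 1. The 4 sites of Hmga2 and the single sites of Hmga1, Igf2bp2 and Igf2bp3 read as follows in the strand of the mRNA, with the seed match in capitals (Hmga1 lies on the plus strand and the other genes on the minus strand):
Hmga2 site 1, chr10:120364224-120364245: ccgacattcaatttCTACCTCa
Hmga2 site 2, chr10:120362987-120363008: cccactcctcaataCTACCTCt
Hmga2 site 3, chr10:120362549-120362570: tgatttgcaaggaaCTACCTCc
Hmga2 site 4, chr10:120361691-120361712: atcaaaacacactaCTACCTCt
Hmga1 site 1, chr17:27563278-27563299: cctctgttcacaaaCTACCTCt
Igf2bp2 site 1, chr16:22059473-22059494: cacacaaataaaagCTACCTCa
Igf2bp3 site 1, chr6:49086787-49086808: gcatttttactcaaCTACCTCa

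**Figure D1:**
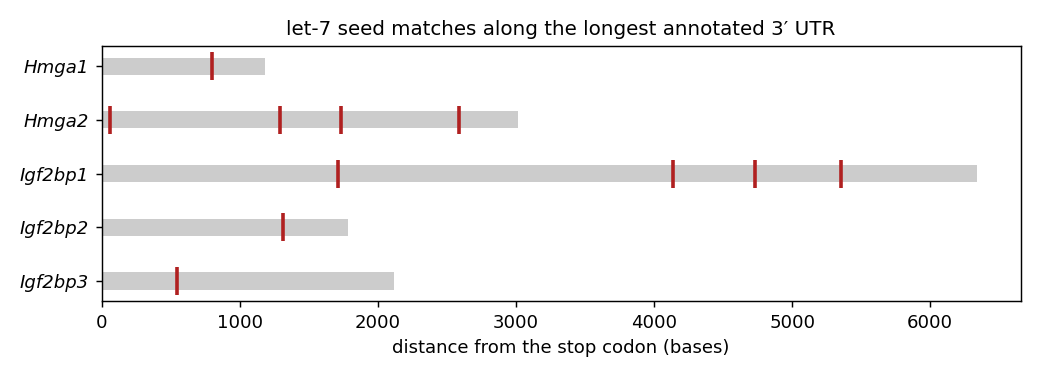
Positions of let-7 seed matches (red ticks) along the longest annotated 3′ UTR (grey bars) of the 5 genes, in bases from the stop codon. Hmga2 and Igf2bp1 carry 4 matches each, spread over their 3014 and 6337 bases, and the other genes carry 1.

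A seed match is a string of letters and not a measured site of repression, and mature microRNAs were not measured in these libraries. Of the 12 genes for let-7 hairpins, Mirlet7e had the most reads, with 0 to 40 counts per library, and it was the 1 hairpin gene tested in the untreated KD comparisons, where it passed in 0 of 3. The LIN28 pair was near the limit of detection, with Lin28a at 0 to 2 counts and Lin28b at 0 to 36 counts per library.

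Library totals ran from 495778 counts (Baf250a KD Zn replicate 2, which stands apart) to 75179394, and the other libraries held at least 12719173. In CPM (read counts scaled to library size, with TMM factors over all 24 libraries), the targeted genes were lower in their own lines. Pbrm1 stood at 42.2 to 75.7 CPM in Baf180 KD against 99.9 to 227 in scr. Arid1a stood at 92.0 to 144 in Baf250a KD against 266 to 308 in scr. Brd9 stood at 13.8 to 17.9 in Brd9 KD against 27.2 to 32.4 in scr. Of the myoblast markers, Myod1 stood at 67.6 to 153 CPM and Des at 777 to 2519 CPM, while Pax7 was at 0 to 5.41 CPM. Of the 10 markers of endothelial, blood, fat, epithelial and nerve cells, Cd68 reached 6.22 CPM and the others stayed at or under 0.377 CPM.

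The 5 genes differed widely in level. Per kilobase of exon, untreated scr myoblasts held 26.3 FPKM of Hmga1, 16.7 FPKM of Hmga2, 14.4 FPKM of Igf2bp2, 2.06 FPKM of Igf2bp3 and 0.0245 FPKM of Igf2bp1. On the same FPKM scale Hmga2 stood above Hmga1 in the other untreated lines, at 50.8 against 36.4 in Baf180 KD, 18.5 against 8.38 in Baf250a KD and 52.9 against 32.3 in Brd9 KD. The rank of Hmga1 is uncertain, because reads that it shares with its near-identical copy Hmga1b would be missing while its full exon length is counted. Untreated Hmga1b itself stood at 48.5 FPKM in scr, 102 in Baf180 KD, 23.7 in Baf250a KD and 92.5 in Brd9 KD. Igf2bp1 was the lowest in every condition, with 1 to 50 counts per library, and its values are therefore the least precise of the group.

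Hmga2, the HMGA protein known for its loss in adult tissue, was about 3-fold higher in untreated Baf180 KD and Brd9 KD myoblasts than in scr, while its difference from scr in Baf250a KD did not pass the test. The untreated scr libraries stood at 118 and 107 CPM. Those of Baf180 KD stood at 362 and 326 CPM and those of Brd9 KD at 354 and 362 CPM. Those of Baf250a KD stood at 120 and 131 CPM. Against scr, the log2 fold change was 1.62 in Baf180 KD (SE 0.11, edgeR adjusted p = 5.21e-07, n = 2 and 2), where 41.0% of 14851 genes passed the adjusted p threshold of 0.05. It was 1.68 in Brd9 KD (SE 0.10, edgeR adjusted p = 6.57e-05), where 29.2% of 14277 genes passed. In Baf250a KD it was 0.15 (SE 0.11, edgeR adjusted p = 0.242), where 57.8% of 14971 genes passed, and 0.22 without scr NT replicate 1 (edgeR adjusted p = 0.0379). In bulk RNA, fewer cells of one kind and less RNA per cell cannot be told apart.

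The Zn-treated libraries, which the choice of genes did not use, again put Baf180 KD and Brd9 KD above scr for Hmga2. Scr stood at 176 and 171 CPM, Baf180 KD at 362 and 324 CPM, and Brd9 KD at 396 and 403 CPM. Against Zn-treated scr, the log2 fold change was 0.92 in Baf180 KD (SE 0.06, edgeR adjusted p = 8.88e-06) and 1.18 in Brd9 KD (SE 0.07, edgeR adjusted p = 2.06e-05), against backgrounds of 49.9% and 23.2% of genes called. In Baf250a KD the Zn libraries stood at 136 and 175 CPM and overlapped the scr pair. The log2 difference of -0.30 (SE 0.10, edgeR adjusted p = 0.00821) passed the threshold there, as did 57.5% of all genes. It was -0.02 (edgeR adjusted p = 0.953) when Baf250a KD Zn replicate 1 was left out. It was also -0.20 and -0.21 without either scr Zn library (edgeR adjusted p = 0.691 and 0.672), and -0.26 with DESeq2 (adjusted p = 0.422). In Cu the KD-to-scr log2 difference of Hmga2 was 1.03 (SE 0.14) in Baf180 KD, -0.09 (SE 0.12) in Baf250a KD and 1.38 (SE 0.13) in Brd9 KD, given here as values only.

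The knockdown lines were also set against each other, a comparison chosen after the values had been seen. Untreated Hmga2 was higher than in Baf250a KD by a log2 difference of 1.47 in Baf180 KD (SE 0.08, edgeR adjusted p = 3.67e-07, 33.9% of genes called) and of 1.53 in Brd9 KD (SE 0.09, edgeR adjusted p = 9.05e-12, 47.5% called). Between Brd9 KD and Baf180 KD the log2 difference was 0.05 (SE 0.08, edgeR adjusted p = 0.740), and 14.6% of genes differed between that pair. Hmga1 gave 2.14 (SE 0.09) and 1.97 (SE 0.11) in the first and second of these comparisons, both past the threshold, and -0.18 (SE 0.10, edgeR adjusted p = 0.264) in the third.

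**Figure D2:**
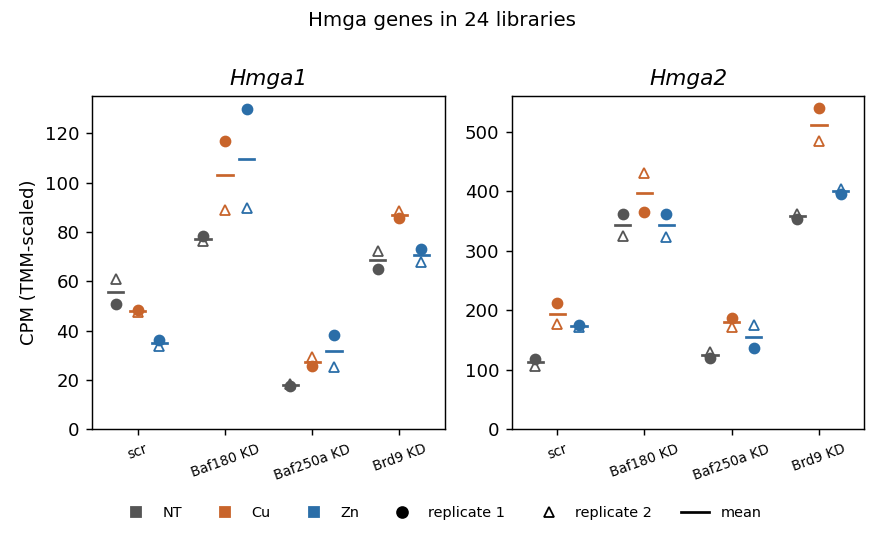
Hmga1 and Hmga2 in TMM-scaled CPM (linear axes from 0) in the 4 cell lines and 3 treatments. Points are single libraries (filled circles for replicate 1, open triangles for replicate 2) and lines are means of 2. The Hmga2 libraries of Baf180 KD and Brd9 KD sit between 324 and 539 CPM, above all libraries of scr and Baf250a KD (107 to 212 CPM).

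Hmga1, the HMGA gene that proliferating cells commonly keep, followed another order, with its lowest levels in Baf250a KD. The untreated Baf250a KD libraries stood at 17.4 and 18.2 CPM, and those of scr at 50.7 and 61.1 CPM. This was a log2 change of -1.65 (SE 0.13, edgeR adjusted p = 2.41e-07), which is 0.318 times the scr level. Baf180 KD stood at 78.2 and 76.4 CPM, above scr by 0.48 on the log2 scale (SE 0.12, edgeR adjusted p = 0.00697). This call was lost when either Baf180 KD library was left out (edgeR adjusted p = 0.0792 and 0.0830). Brd9 KD stood at 64.8 and 72.4 CPM, with a log2 change of 0.31 (SE 0.13) that did not pass the threshold (edgeR adjusted p = 0.0956). It did pass with a GC content and length offset (0.57, edgeR adjusted p = 0.00378), with summed counts of Hmga1 and its copy Hmga1b (0.72, edgeR adjusted p = 0.00134) or without scr NT replicate 2 (edgeR adjusted p = 0.0256).

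In Zn the distances from scr were larger for Baf180 KD and Brd9 KD, and the difference of Baf250a KD from scr did not pass the test. Zn-treated scr stood at 36.3 and 33.8 CPM, Baf180 KD at 130 and 89.7 CPM, Brd9 KD at 73.3 and 67.7 CPM, and Baf250a KD at 38.4 and 25.3 CPM. Relative to Zn-treated scr, Hmga1 rose by a log2 value of 1.58 in Baf180 KD (SE 0.14, edgeR adjusted p = 3.75e-05) and 0.98 in Brd9 KD (SE 0.08, edgeR adjusted p = 7.97e-05). In Baf250a KD it was 0.09 (SE 0.11, edgeR adjusted p = 0.505), against -1.65 without metal. The Baf250a KD pair spanned that of scr, with a lower mean (31.8 against 35.1 CPM). The Hmga1 value of the shallow Baf250a KD Zn library rests on 13 counts. The sign in this comparison turned with DESeq2 (-0.09) and with the GC content and length offset (-0.24, edgeR adjusted p = 0.0348).

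A near-identical gene and base composition stand beside every Hmga1 value. The gene is Hmga1b (chr11:120762794-120764419, plus strand, GRCm38), annotated as 1 exon of 1626 bases, while Hmga1 itself lies at chr17:27556497-27563674. Of the 50-base words of Hmga1b transcripts, 89% also occur in those of Hmga1, and 55% of the words of Hmga1 occur in Hmga1b. The study's methods kept only reads with a single alignment, so reads from the shared words would be missing from both genes. The values of both therefore rest on the parts in which they differ and are uncertain. Hmga1b fell with Baf250a KD (log2 fold change -1.03, SE 0.12, edgeR adjusted p = 1.17e-05) and rose in both other untreated lines (1.09 with SE 0.12 in Baf180 KD and 0.95 with SE 0.09 in Brd9 KD, edgeR adjusted p = 2.62e-05 and 0.000444). In Baf250a KD with Zn, where Hmga1 did not pass, Hmga1b stayed lower than in scr (log2 fold change -0.99, SE 0.11, edgeR adjusted p = 8.18e-12). The summed counts of the pair gave -0.58 (edgeR adjusted p = 5.35e-07). Hmga1 exons are 61.4% GC. The slope of expression on GC content (log2 per 10 percentage points) was 0.09 and 0.33 in the NT libraries of scr but -0.27 and -0.32 in its Zn libraries, and -0.19 to 0.23 in the NT and Zn libraries of the KD lines. Its part in the Hmga1 values was not tested beyond the offset given here.

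**Figure D3:**
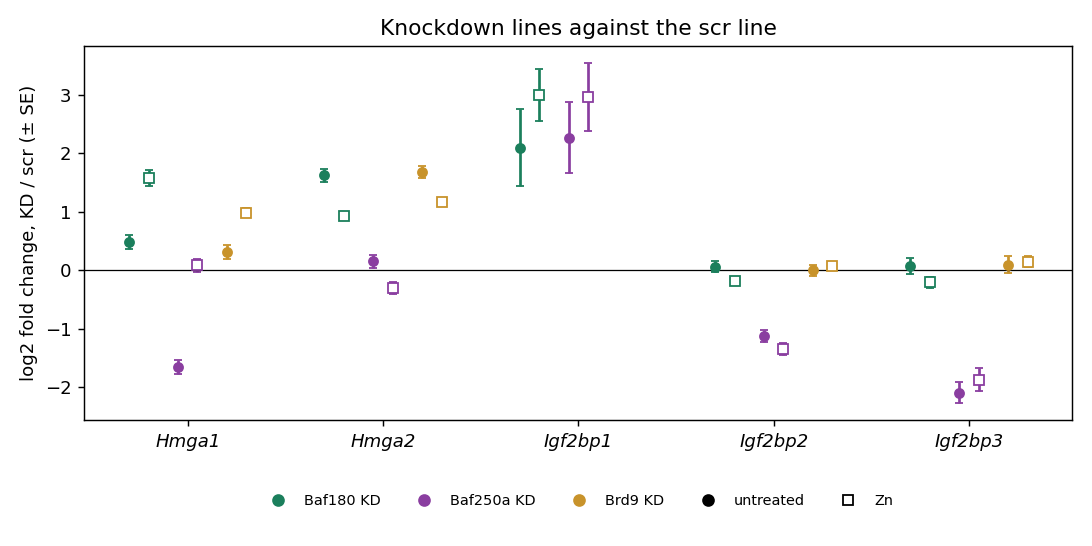
Log2 fold change of each gene in the 3 KD lines against scr, untreated (filled circles) and in Zn (open squares), with the standard error of the edgeR fit. Hmga2 lies above 0 in Baf180 KD and Brd9 KD, Igf2bp2 and Igf2bp3 lie below -1 in Baf250a KD, and Igf2bp1 (not tested in Brd9 KD, where its counts were too low) lies above 2 in the other lines.

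Igf2bp2, the IGF2BP member that stays expressed in adult muscle, was lower in Baf250a KD and near the scr level in both other lines. The untreated libraries of scr stood at 109 and 104 CPM, of Baf180 KD at 113 and 107 CPM, of Brd9 KD at 107 and 103 CPM, and of Baf250a KD at 49.6 and 48.0 CPM. Against scr the log2 fold change was -1.13 in Baf250a KD (SE 0.10, edgeR adjusted p = 1.35e-06), which is 0.458 times scr. It was 0.07 (SE 0.10, edgeR adjusted p = 0.641) in Baf180 KD and -0.00 (SE 0.10, edgeR adjusted p = 0.987) in Brd9 KD. In Zn the Baf250a KD libraries held 44.3 and 56.4 CPM against 116 and 110 CPM in scr, which was -1.34 on the log2 scale (SE 0.10, edgeR adjusted p = 3.29e-18). A small difference in Zn-treated Baf180 KD (log2 fold change -0.18, SE 0.06, edgeR adjusted p = 0.0328) did not pass with DESeq2 (adjusted p = 0.0964), with all 24 libraries in the edgeR fit (adjusted p = 0.256) or without either scr Zn library (edgeR adjusted p = 0.331 and 0.142).

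Igf2bp3, a member that most adult tissues lack, was likewise lowest in Baf250a KD, at a lower level and with a larger log2 value. Untreated scr stood at 16.2 and 17.4 CPM, Baf180 KD at 17.8 and 17.2 CPM, Brd9 KD at 17.2 and 18.4 CPM, and Baf250a KD at 4.45 and 3.39 CPM. In Baf250a KD the log2 change was -2.09 (SE 0.18, edgeR adjusted p = 7.78e-07), or 0.235 times scr. In Zn it was -1.87 (SE 0.19, edgeR adjusted p = 6.54e-13), with 4.67 and 7.78 CPM in Baf250a KD and 17.8 and 16.9 CPM in scr. The second of those Baf250a KD libraries is the shallow one, with 4 Igf2bp3 counts. Without Baf250a KD Zn replicate 1 the value was -1.18 (edgeR adjusted p = 0.193). In the comparison of untreated KD lines chosen after the values were seen, Igf2bp2 and Igf2bp3 were higher in Baf180 KD than in Baf250a KD by log2 differences of 1.19 (SE 0.08) and 2.17 (SE 0.16). They were higher in Brd9 KD than in Baf250a KD by 1.12 (SE 0.09) and 2.19 (SE 0.17), and all 4 values passed the threshold.

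Igf2bp1, known as the zipcode-binding protein of beta-actin mRNA, was higher in Baf250a KD, where both relatives fell, and in Baf180 KD, at counts close to the limit of the test. Untreated scr libraries held 6 and 2 counts (0.382 and 0.0929 CPM), Baf180 KD libraries 28 and 16 counts (1.25 and 0.659 CPM), Baf250a KD libraries 22 and 28 counts (0.851 and 1.32 CPM), and Brd9 KD libraries 3 and 4 counts (0.158 and 0.270 CPM). The gene passed the filter on low counts only through the KD libraries, where it is high, so its p-values against scr are given as a description and support nothing. On the log2 scale the difference was 2.10 in Baf180 KD (SE 0.65, edgeR adjusted p = 0.0232) and 2.27 in Baf250a KD (SE 0.61, edgeR adjusted p = 0.00643). Neither passed with DESeq2 (adjusted p = 0.122 and 0.0523). Leaving out scr NT replicate 2 also ended both calls (edgeR adjusted p = 0.225 and 0.0821). The first was also lost without either Baf180 KD library (edgeR adjusted p = 0.227 and 0.0564), and the second without Baf250a KD NT replicate 2 (edgeR adjusted p = 0.0950). In Zn the log2 fold change was 2.99 in Baf180 KD (SE 0.45, edgeR adjusted p = 0.000662) and 2.97 in Baf250a KD (SE 0.58, edgeR adjusted p = 1.28e-05). The value in Zn-treated Baf180 KD ran from 2.51 to 3.26 over the alternatives tried. These rest on the same passage through the filter and add no support. The Baf250a KD call in Zn was lost with DESeq2 (2.93, adjusted p = 0.186). It was also lost without Baf250a KD Zn replicate 1 (log2 value 3.33) or either scr Zn library (3.24 and 2.475). In Brd9 KD the gene was removed by the filter on low counts, and at 2 to 8 counts per library a difference from scr was not detectable at this depth. In the comparison of untreated KD lines, where it again passed the filter through the higher line, it was lower in Brd9 KD than in Baf250a KD (log2 difference -2.32, SE 0.58, edgeR adjusted p = 0.00243) and than in Baf180 KD (-2.16, SE 0.60, edgeR adjusted p = 0.0434), the latter not with DESeq2.

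**Figure D4:**
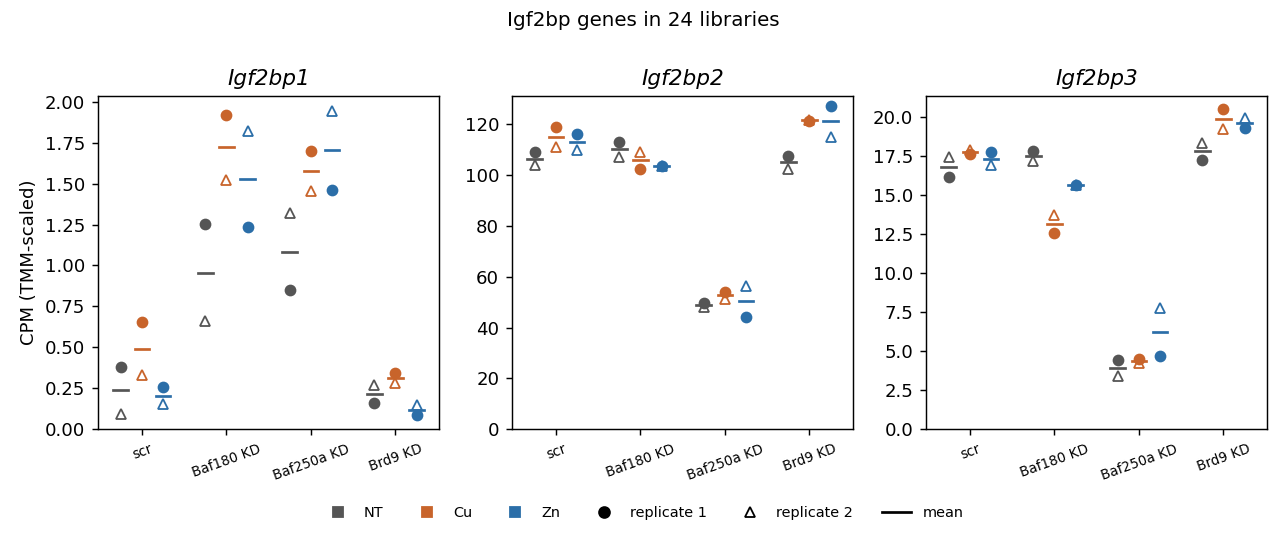
Igf2bp1, Igf2bp2 and Igf2bp3 in TMM-scaled CPM (linear axes from 0, 1 scale for each gene) in the 4 cell lines and 3 treatments, with single libraries as points and means of 2 as lines. Igf2bp2 and Igf2bp3 are lowest in Baf250a KD (44.3 to 56.4 and 3.39 to 7.78 CPM), and Igf2bp1 is highest in Baf180 KD and Baf250a KD (0.659 to 1.94 CPM).

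With the shallow Baf250a KD Zn library left out, the log2 values against Zn-treated scr were 0.10 for Hmga1, -0.38 for Hmga2, 2.92 for Igf2bp1, -1.39 for Igf2bp2 and -1.93 for Igf2bp3.

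Igf2bp1 aside, 4 genes passed the filter in every comparison. In untreated Baf180 KD 2 of these 4 rose (Hmga1 and Hmga2) and 0 fell, beside 21.7% of all genes rising and 19.3% falling. In untreated Baf250a KD 0 rose and 3 fell (Hmga1, Igf2bp2 and Igf2bp3), beside 28.9% of all genes in each direction. In untreated Brd9 KD 1 rose (Hmga2) and 0 fell, beside 15.1% of all genes rising and 14.1% falling. In Zn, 3 of the 4 passed in Baf180 KD (2 higher), 3 in Baf250a KD (0 higher) and 2 in Brd9 KD (both higher), where 49.9%, 57.5% and 23.2% of all genes were called. The untreated comparisons share the scr libraries, and their KD libraries also entered the copper contrast that the choice of genes rests on.

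Metal responses were then read within each line. For Cu, the contrast behind the choice of genes, values are given as a description. Hmga2 went from 118 and 107 CPM to 212 and 177 CPM in scr, from 362 and 326 to 365 and 430 CPM in Baf180 KD, from 120 and 131 to 186 and 173 CPM in Baf250a KD, and from 354 and 362 to 539 and 484 CPM in Brd9 KD. Both Cu libraries lay above both NT libraries in every line, though by little in Baf180 KD (365 against 362 CPM). How many of all genes separate in this way was not counted, and nothing is read from the separation. The log2 fold change was 0.80 (SE 0.11) in scr, 0.18 (SE 0.10) in Baf180 KD, 0.52 (SE 0.10) in Baf250a KD and 0.46 (SE 0.08) in Brd9 KD. The genes were chosen on a rise of Hmga2 with copper in 2 KD lines. In the present fit the value was past the adjusted p threshold in 1, Baf250a KD, where 1.27% of all genes were called, beside 0.274% in Brd9 KD, 13.8% in Baf180 KD and 0.0333% in scr. Nothing is read from that count, since the choice used this contrast.

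The other members moved less uniformly with Cu. Hmga1 changed by a log2 value of -0.20 (SE 0.11) in scr, 0.38 (SE 0.16) in Baf180 KD, 0.62 (SE 0.12) in Baf250a KD and 0.29 (SE 0.09) in Brd9 KD. Igf2bp2 stayed between -0.09 and 0.16 in all lines. Igf2bp3 went from 17.8 and 17.2 CPM to 12.6 and 13.7 CPM in Baf180 KD, a log2 fold change of -0.45 (SE 0.11), and lay between 0.10 and 0.15 in the other lines. Igf2bp1 gave log2 values of 0.82 (SE 0.38) in Baf180 KD and 0.56 (SE 0.37) in Baf250a KD, and was too low for the fit in the other lines. In Cu the KD-to-scr log2 values were 1.09, -0.78 and 0.84 for Hmga1 in Baf180 KD, Baf250a KD and Brd9 KD, -0.13, -1.10 and 0.06 for Igf2bp2, and -0.44, -2.0 and 0.15 for Igf2bp3.

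With Zn the comparisons were tested, though they share the NT libraries with the Cu contrast. In scr, Hmga2 rose (from 118 and 107 to 176 and 171 CPM, log2 fold change 0.71, SE 0.11, edgeR adjusted p = 0.0275). Hmga1 fell there (from 50.7 and 61.1 to 36.3 and 33.8 CPM, log2 fold change -0.59, SE 0.11, edgeR adjusted p = 0.0275), where 17.6% of 15002 genes passed. Both calls were lost with a GC content and length offset, which gave 0.50 for Hmga2 (edgeR adjusted p = 0.0514) and -0.24 for Hmga1 (edgeR adjusted p = 0.145). They were also lost without scr NT replicate 2, scr Zn replicate 1 or scr Zn replicate 2 (edgeR adjusted p from 0.128 to 0.200). Summed with Hmga1b, Hmga1 gave -0.07 (edgeR adjusted p = 0.720). In Baf250a KD Hmga1 rose from 17.4 and 18.2 to 38.4 and 25.3 CPM (log2 fold change 1.06, SE 0.14, edgeR adjusted p = 1.99e-05), where 15.9% of genes passed. Without Baf250a KD Zn replicate 1, which leaves the shallow library alone, this was 0.53 (edgeR adjusted p = 0.651). No member passed in Baf180 KD or Brd9 KD, where 0.0197% and 0.0334% of genes did. At an unadjusted threshold of 0.05 the edgeR fit held 1 member in each, Hmga1 in Baf180 KD (log2 value 0.48, SE 0.16) and Igf2bp2 in Brd9 KD (0.20, SE 0.07). Over all genes, 1999 of 15241 in Baf180 KD and 451 of 14978 in Brd9 KD passed that unadjusted threshold. DESeq2 called no member in either of those lines, and edgeR without the filter on low counts called Hmga1 in Baf180 KD (0.48, edgeR adjusted p = 0.000601). Mt1, a metallothionein gene that responds to zinc, rose with Zn in scr (log2 value 2.40, SE 0.16, edgeR adjusted p = 0.00320), Baf250a KD (1.03, SE 0.11, edgeR adjusted p = 2.97e-06) and Brd9 KD (1.56, SE 0.08, edgeR adjusted p = 0.000109), and gave 1.28 (SE 0.17, edgeR adjusted p = 0.0646) in Baf180 KD.

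**Figure D5:**
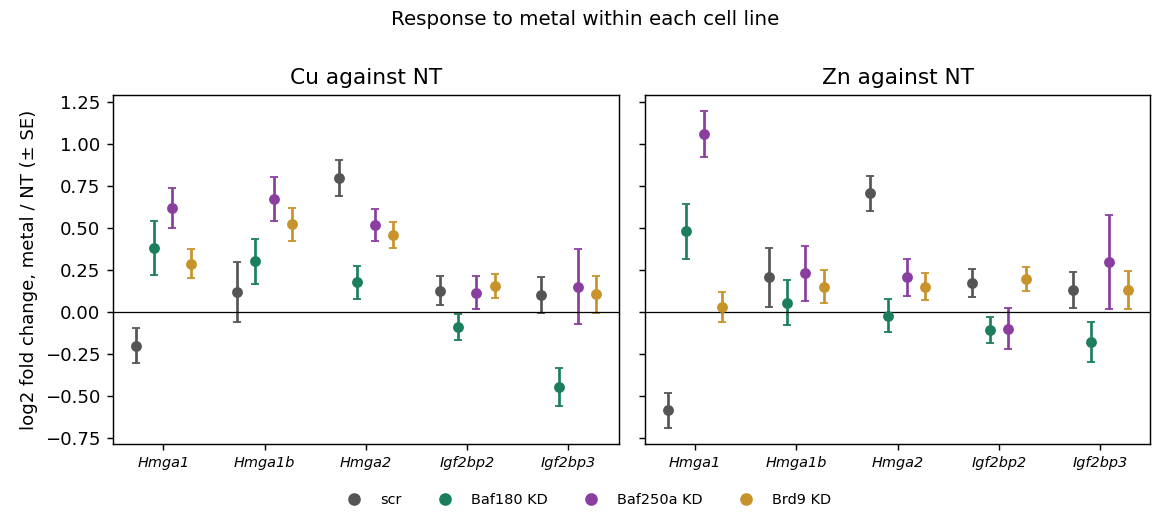
Log2 fold change with Cu (left) and Zn (right) against NT within each of the 4 lines, with the standard error of the edgeR fit, for Hmga1, its copy Hmga1b, Hmga2, Igf2bp2 and Igf2bp3. Hmga2 lies between 0.18 and 0.80 with Cu in all lines, and with Zn Hmga1 runs from -0.59 in scr to 1.06 in Baf250a KD while Hmga1b stays between 0.05 and 0.23.

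The difference in Zn response between each KD line and scr was tested in 1 fit over all 24 libraries. For Hmga1 the response exceeded that of scr by a log2 value of 1.18 in Baf180 KD (SE 0.21, edgeR adjusted p = 0.00110), 1.71 in Baf250a KD (SE 0.24, edgeR adjusted p = 0.000144) and 0.72 in Brd9 KD (SE 0.21, edgeR adjusted p = 0.0390), beside 28.7%, 30.5% and 11.1% of all genes called. For Hmga2 it differed from that of scr by -0.63 in Baf180 KD (SE 0.16, edgeR adjusted p = 0.00631). The Hmga2 differences of -0.39 (SE 0.17) in Baf250a KD and -0.46 (SE 0.16) in Brd9 KD did not pass (edgeR adjusted p = 0.0853 and 0.0598). Both passed with DESeq2 (-0.47 and -0.53, adjusted p = 0.0397 and 0.0227). Hmga1b gave -0.05 (SE 0.27), 0.18 (SE 0.31) and 0.04 (SE 0.27) in the 3 lines, none past the threshold. With the counts of the pair summed the Hmga1 difference was 0.30 in Baf180 KD (edgeR adjusted p = 0.275) and 0.20 in Brd9 KD (edgeR adjusted p = 0.527). With the GC content and length offset, Hmga2 in Baf180 KD was -0.45 (edgeR adjusted p = 0.0846) and Hmga1 in Brd9 KD was 0.24 (edgeR adjusted p = 0.481). Without the shallow Baf250a KD Zn replicate 2 the differences in Baf250a KD were 1.78 for Hmga1 (edgeR adjusted p = 8.12e-05) and -0.50 for Hmga2 (edgeR adjusted p = 0.0285). Without replicate 1 the Hmga1 difference was 1.17 (edgeR adjusted p = 0.205). The Hmga1 difference in Brd9 KD was lost in 6 of the 8 fits that left out 1 library, among them those without scr NT replicate 2 or either scr Zn library.

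Because the experiment concerned metals, the promoters were searched for the core of the metal response element, which the zinc-dependent factor MTF1 recognises. The letters TGCACNC and TGCGCNC were sought on both strands in the 300 bases around each RefSeq start site (GRCm38.p6), where 25.7% of 32851 promoters held at least 1 match. Igf2bp2 held 5, a number that 0.143% of promoters reached. That share was taken over all promoters, without matching on GC content, and the part of base composition in it was not tested. Hmga1 held 1 or 2 in its 2 listed promoters, and Hmga2 and Igf2bp3 held 0, while Mt1 held 3. Igf2bp1 was not searched here. The absence of a match in this window is not a measure of binding. The study itself lists Hmga2 among the MTF1-bound genes that Cu induced in Brd9 KD, from its own map of MTF1 binding in Cu-treated myoblasts, which was not analysed here. The Igf2bp2 promoter is printed because it had the most matches of the members searched, and the gene passed the threshold with Zn in none of the 4 lines (log2 fold change -0.11 to 0.20), with the matches in capitals in the direction of transcription (minus strand):
Igf2bp2 promoter, chr16:22163250-22163549: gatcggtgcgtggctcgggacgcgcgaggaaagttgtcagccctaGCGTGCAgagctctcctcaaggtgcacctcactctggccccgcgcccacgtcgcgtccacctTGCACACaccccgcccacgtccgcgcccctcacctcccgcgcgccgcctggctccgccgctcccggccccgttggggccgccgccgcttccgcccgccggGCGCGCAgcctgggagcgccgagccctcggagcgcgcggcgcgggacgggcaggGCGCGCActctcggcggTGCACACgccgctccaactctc

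The other genes of the let-7 pathway were counted from lists set with earlier results of these data known. Of 15 pathway genes (LIN28 and TRIM71, the processing enzymes, the Argonaute proteins and the terminal uridylyl transferases), 12 were tested in untreated Baf180 KD, of which 3 rose and 0 fell, beside 41.0% of all genes called. In untreated Baf250a KD 4 of 12 rose and 2 fell (57.8% of all genes called), and in untreated Brd9 KD 2 of 13 rose and 0 fell (29.2%). Tut4, which adds uridine to let-7 precursors, rose in all 3 untreated lines. Its log2 value was 0.96 (SE 0.17, edgeR adjusted p = 0.00120) in Baf180 KD, 0.86 (SE 0.16, edgeR adjusted p = 0.000610) in Baf250a KD and 0.83 (SE 0.19, edgeR adjusted p = 0.0154) in Brd9 KD. Ago3, an Argonaute protein, likewise rose by 0.84 (SE 0.16), 0.86 (SE 0.15) and 0.87 (SE 0.21). Tut7, a second uridylyl transferase, rose in Baf180 KD (0.43, SE 0.12). In Baf250a KD Ago4 rose (1.04, SE 0.33) while Tarbp2, a partner of Dicer, and Xpo5, the exporter of microRNA precursors, fell (-0.39, SE 0.12, and -0.28, SE 0.11). Dicer1, the precursor-cutting enzyme, did not pass in any of the 3 lines (0.18, 0.10 and 0.23). All these values set untreated lines against the same scr libraries. Against Zn-treated scr, the highest log2 value of any pathway gene tested was 0.50 in Baf180 KD, 1.15 in Baf250a KD and 0.28 in Brd9 KD. In Cu it was 0.32, 1.12 and 0.35. The untreated values of Tut4 and Ago3 in Baf180 KD and Brd9 KD therefore did not recur with either metal.

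Other known let-7 targets moved in both directions. Of 18 tested among 19, 8 rose and 6 fell in untreated Baf180 KD (median log2 fold change 0.06), 7 rose and 7 fell in Baf250a KD (0.02), and 4 rose and 5 fell in Brd9 KD (0.16). Over all genes 21.7% rose and 19.3% fell in the first, 28.9% each in the second, and 15.1% and 14.1% in the third. Ccnd1, the cell cycle gene cyclin D1, rose in all lines, by log2 values of 1.12 (SE 0.11), 1.24 (SE 0.10) and 1.36 (SE 0.09). The receptor gene Tgfbr1 also rose in all lines, by 1.01 (SE 0.16), 1.20 (SE 0.14) and 0.85 (SE 0.17). Ccnd2, encoding cyclin D2, fell in all lines, by a log2 value of -0.86 (SE 0.10), -0.71 (SE 0.10) and -0.54 (SE 0.09). Thbs1, encoding the matrix protein thrombospondin, rose in Baf250a KD (1.71, SE 0.10), Arid3b in Baf180 KD (0.84, SE 0.22) and E2f5 in Brd9 KD (0.76, SE 0.21). The ubiquitin-conjugating enzyme gene Cdc34 fell in Baf180 KD (-0.68, SE 0.11) and in Baf250a KD (-1.14, SE 0.12). Irs2 and Hras fell in Brd9 KD (-0.63, SE 0.12, and -0.50, SE 0.10).

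Of 15 mRNAs known as bound by IGF2BP proteins or as lying downstream of HMGA2, 14 were tested in untreated Baf180 KD (3 rose, 3 fell, median log2 fold change 0.02), 15 in Baf250a KD (7 rose, 4 fell, median 0.26) and 14 in Brd9 KD (3 rose, 3 fell, median -0.08). Of all genes 41.0%, 57.8% and 29.2% were called in these comparisons. The values in untreated Baf250a KD ran from -3.84 to 6.29, and the gene with the highest value did not meet the rule for naming. Plag1, a growth-regulating transcription factor gene placed downstream of HMGA2, fell in Baf250a KD (-0.65, SE 0.25, edgeR adjusted p = 0.0386), rose in Brd9 KD (0.89, SE 0.27, edgeR adjusted p = 0.0420) and gave 0.43 (SE 0.24, edgeR adjusted p = 0.165) in Baf180 KD. Cd44, an adhesion receptor mRNA that IGF2BP proteins bind, fell in Baf180 KD (-1.25, SE 0.11) and Baf250a KD (-1.24, SE 0.10). Mapk4, an atypical MAP kinase gene, fell in all lines, by a log2 value of -2.17 (SE 0.13) in Baf180 KD, -3.84 (SE 0.14) in Baf250a KD and -1.37 (SE 0.12) in Brd9 KD. Igf1r, the receptor for insulin-like growth factors, rose in Baf180 KD (0.83, SE 0.10) and Baf250a KD (1.10, SE 0.10). The noncoding RNA H19 fell in Baf180 KD (-0.51, SE 0.13) and Brd9 KD (-0.57, SE 0.10). Lamb2, encoding a laminin chain, fell in Brd9 KD (-0.57, SE 0.09).

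Without metal, the other HMG chromatin proteins went both ways in Baf180 KD, while those called in Baf250a KD and Brd9 KD fell. Of 7, 2 rose and 2 fell in untreated Baf180 KD, 0 rose and 5 fell in Baf250a KD (median log2 fold change -0.77) and 0 rose and 1 fell in Brd9 KD. The share of all genes that fell was 19.3%, 28.9% and 14.1%, and the share that rose 21.7%, 28.9% and 15.1%. Hmgn2, Hmgb3 and Hmgn3 fell in Baf250a KD by a log2 value of -0.86 (SE 0.14), -0.81 (SE 0.14) and -0.81 (SE 0.15). Hmgn5 and Hmgb1 rose in Baf180 KD (1.42, SE 0.47, and 0.57, SE 0.12), where Hmgn2 and Hmgn1 fell (-0.64, SE 0.15, and -0.49, SE 0.10), and Hmgn1 fell in Brd9 KD (-0.32, SE 0.09). The picture differed in Zn. There 1 rose and 3 fell in Baf250a KD (median -0.02), where 57.5% of all genes were called. In Baf180 KD 1 rose and 2 fell (49.9% called), and the highest log2 value of the list was 0.39. In Brd9 KD 0 rose and 1 fell (23.2% called).

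Over the 12 condition means, log2 CPM of Igf2bp2 and Igf2bp3 had a Pearson r of 0.98, Hmga1 and Hmga2 one of 0.80, and Igf2bp1 and Igf2bp3 one of -0.64, as descriptions over points that share cell lines and libraries. Over the 24 libraries and 9301 genes with a mean of at least 10 CPM, the genes most like Hmga2 were Fosl1, an AP-1 subunit gene (r = 0.94), Nptx1 (0.92), Hmga1b (0.92), Cobll1 (0.91) and Dis3, a catalytic subunit of the RNA exosome (0.91). Those most like Igf2bp2 were Igf2bp3 (0.97), Msn, encoding the actin linker moesin (0.97), Arid1a (0.97), Osbp2 (0.97) and Gap43 (0.97). Arid1a is the gene targeted in Baf250a KD and so separates that line by design. After the mean of each line was subtracted, the genes most like Hmga2 were Tshz1 (0.93), Lgals8 (0.87), Gpr137b (0.86), Lrp8 (0.85) and Slc7a11, encoding the cystine transporter (0.85). Without the shallow Baf250a KD Zn library 3 of the first 5 names, 3 of the second 5 and 2 of the third 5 remained.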

How the data were processed

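Total RNA from flash-frozen pellets had been made into directional libraries (NEBNext, per the labels). The deposited file held raw counts per gene symbol. Per the study's methods, the authors aligned read pairs to mm10 with STAR, keeping reads with a single alignment, and counted reverse-stranded pairs with featureCounts. They used deepTools for coverage tracks and DESeq2 for their comparisons. Versions are not given in the sources used here. The authors' own comparison tables (fold changes and p-values) were not used.

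Groups came from sample titles, because the treatment tag of some samples contradicts them. Genes passing edgeR's filterByExpr were fitted (edgeR 4.0.16, R 4.3.3, TMM, quasi-likelihood test, two-sided) within the groups compared (4 libraries for KD against scr, 6 for Zn against NT, 24 for differences in Zn response), with Benjamini-Hochberg adjustment over all genes tested and a threshold of 0.05. SE is the log2 fold change divided by the root of F. FPKM is CPM per kilobase of exon in GENCODE M21, and log2 CPM used a prior count of 2. The scripts were tested on simulated counts. Totals ran from 495778 to 75179394, and no pair of libraries was identical.

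The members, gene lists and tests were chosen with earlier results of these data known. Genes were named by a rule: the members, Hmga1b, the targeted genes and Mt1, in each list up to 3 of the largest rises and falls called in an untreated KD comparison among genes whose mean normalized count reached 50, and the 5 genes most like Hmga2 and Igf2bp2. Some genes that this rule names are not reported here. Values for Dicer1, Lin28a, Lin28b and Mirlet7e were added after they were seen. Alternatives were DESeq2 1.42.0, RLE, no filter, other libraries in the fit, a replicate block, a GC content and length offset (splines with 5 degrees of freedom), summed Hmga1 and Hmga1b counts, and leaving out each library (76 fits, in which a library left alone is assumed to vary like the others).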

Additional observations from a re-analysis of the deposited data

Results flagged for a closer look

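The Zn response of Hmga1 differed between scr and each KD line by the test of the difference itself, by a log2 value of 1.18 in Baf180 KD, 1.71 in Baf250a KD and 0.72 in Brd9 KD, and that of Hmga2 differed between scr and Baf180 KD by -0.63. For Hmga1 the line values behind these differences were -0.59 in scr, 0.48 in Baf180 KD, 1.06 in Baf250a KD and 0.03 in Brd9 KD. In scr, Baf180 KD and Baf250a KD the NT and Zn libraries did not overlap, a separation that was not counted over all genes. For Hmga2 they were 0.71 in scr and -0.02 in Baf180 KD. For the copy Hmga1b no line passed this test (-0.05, 0.18 and 0.04). With the counts of the pair summed, the Hmga1 difference was 0.30 in Baf180 KD (edgeR adjusted p = 0.275) and 0.20 in Brd9 KD (edgeR adjusted p = 0.527). With the GC content and length offset, Hmga1 in Brd9 KD gave 0.24 (edgeR adjusted p = 0.481) and Hmga2 in Baf180 KD gave -0.45 (edgeR adjusted p = 0.0846). In Baf250a KD the Hmga1 difference ran from 0.68 to 1.84 over the alternatives. Conditions of 2 libraries were too small for a search for single outlying libraries.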

How the results depend on the processing

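Of the counts of members called, 146 of 191 alternatives stayed within 1.5 times the value reported, and of the tested log2 fold changes 807 of 909 kept their direction and their side of the threshold, 51 lost the call, 23 gained one and 28 turned sign. Hmga2 in untreated Baf180 KD (1.45 to 1.68) and Brd9 KD (1.55 to 1.76), and Igf2bp2 in untreated Baf250a KD (-1.17 to -1.07), stayed past the threshold in every alternative. The causes of the changes below were not tested. Counts of members called include Igf2bp1 wherever it passed the filter. They became 2 with DESeq2 in Baf250a KD against scr with Zn (4 reported), and 2 with the GC content and length offset, summed Hmga1 and Hmga1b counts or the crossed pairing in untreated Brd9 KD (1 reported). For Zn against NT in scr (2 reported) they were 0 with the replicate block or the GC offset and 1 with summed counts, and in Baf180 KD (0 reported) 1 with all genes of at least 1 count or the block. For the differences in Zn response they were 1 with summed counts in Baf180 KD (2 reported), 2 in Baf250a KD (1 reported) with DESeq2, RLE, no filter, 8 libraries, the GC offset or summed counts, and in Brd9 KD (1 reported) 2 with DESeq2, RLE, no filter, 8 libraries or the block and 0 with the GC offset. Brd9 KD against Baf180 KD (1 reported) gave 0 with DESeq2 and 2 with the block. Leaving out 1 library gave 1 to 3 in untreated Baf180 KD, 1 to 4 in Baf250a KD with Zn, 1 to 2 in untreated Brd9 KD, 0 to 2 for Zn in scr, 0 to 1 for Zn in Baf250a KD, 0 to 2 for the response differences of Baf250a KD and Brd9 KD, and 0 to 1 for Brd9 KD against Baf180 KD. Hmga2 with Cu in Baf250a KD ran from 0.44 to 0.57.

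Sign turned with the GC offset for Igf2bp3 in untreated Baf180 KD (-0.15) and Brd9 KD (-0.064), Hmga2 in untreated Baf250a KD (-0.011), Igf2bp2 in untreated Brd9 KD (0.032), Igf2bp3 in scr with Zn (-0.10) and Cu (-0.0074), Hmga2 in Baf180 KD with Zn (0.053), Hmga1 in Brd9 KD with Zn (-0.00081), Igf2bp2 in the Brd9 KD response difference (-0.030) and Igf2bp2 in Brd9 KD against Baf180 KD (0.022). Hmga1 in Baf250a KD against scr with Zn was -0.087 with DESeq2, -0.043 with the block, -0.24 with the GC offset, -0.58 with summed counts and -0.49 to 0.10 on leaving out 1 library. On leaving out 1 library, sign also turned for Igf2bp2 in untreated Brd9 KD (-0.048 to 0.030), Hmga2 with Zn in Baf180 KD (-0.092 to 0.047), Igf2bp2 with Zn (-0.15 to 0.23) and Igf2bp3 with Cu (-0.030 to 0.36) in Baf250a KD, Hmga1 with Zn in Brd9 KD (-0.069 to 0.14), Igf2bp1 in the response differences of Baf180 KD (-0.26 to 1.72), Baf250a KD (-0.50 to 1.48) and Brd9 KD (-1.83 to 0.15), Igf2bp2 in that of Baf250a KD (-0.25 to 0.11), Igf2bp1 in Baf180 KD against Baf250a KD (-0.72 to 0.21), and Igf2bp3 in Brd9 KD against Baf180 KD (-0.022 to 0.086).

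Over all genes, Zn in scr called 2645, against 4968 in the fit of 24 libraries, 171 with the GC offset and 5 to 8 without scr NT replicate 2 or either scr Zn library. Zn in Baf180 KD called 3, against 91 with DESeq2, 589 without the filter, 14 in the fit of 24 libraries and 9 with the GC offset. Zn in Baf250a KD called 2334, against 304 with DESeq2 and 805 in the fit of 24 libraries, and Zn in Brd9 KD 5, against 10 with DESeq2 and 29 without the filter. Baf250a KD with Zn called 8304, against 2983 with DESeq2, and the response differences 4742, 5036 and 1837, against 1638, 3101 and 4 with the GC offset. Same-numbered libraries deviated together in some pairs of conditions and apart in others (r from -0.59 to 0.62, and 0.16 to 0.59 within Baf180 KD), and with 2 numbers the replicate number was not taken as a pairing. With the block Hmga1 passed for Zn in Baf180 KD (0.46, edgeR adjusted p = 0.0332). The block moved calls over all genes to 14 for Zn in scr, 657 in Baf180 KD, 3 in Brd9 KD, 4781 for Baf250a KD with Zn, 5566 for Brd9 KD with Zn and 5508 for Brd9 KD against Baf180 KD, and the crossed pairing gave 7415 in untreated Brd9 KD (4165 reported).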
